A study of Homo sapiens with 6 samples.

Results

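The combined knockdown of the histone variants H3.X and H3.Y was compared with the knockdown of H3.Y alone, in 2 arrays of each. The question was which transcripts differ when H3.X is targeted together with H3.Y. All probe sets with exactly 1 gene symbol were taken, which gave 19460 of the 33297 probe sets on the array and 18417 genes. The cells were U2OS, an established human osteosarcoma line grown in serum-containing medium. The study has 3 groups of 2 arrays. The first group received siRNA against H3.Y, another siRNA against H3.X and H3.Y, and the control group siRNA against luciferase. Each group went through 2 transfections, and RNA was taken 4 days after transfection. The luciferase arrays were used here to tell which knockdown had moved away from the control. The labels do not say whether the combined group received separate siRNAs or 1 siRNA that hits both transcripts, and no group received siRNA against H3.X alone.

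Histone H3 is a core protein of the nucleosome, and its variants replace the canonical protein at particular genes, times or cell types. H3.X and H3.Y are primate-specific variants encoded by closely similar genes, so a difference between the knockdowns cannot be assigned to H3.X alone from these groups. U2OS cells derive from bone and secrete collagens, fibronectin and other matrix proteins, which cells bind through integrins coupled to the actin cytoskeleton.

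Values are log2 expression levels as deposited, and 1 log2 unit is a 2-fold difference. Array medians lay between 5.10 and 5.14, so all arrays shared 1 scale. Across probe sets, arrays of the same group correlated with r of 0.986 to 0.992, and combined arrays correlated with H3.Y arrays with r of 0.978 to 0.983. Replicate arrays differed from each other with an SD, over probe sets, of 0.304 in the combined group, 0.419 in the H3.Y group and 0.333 in the luciferase group. The labels call the arrays biological replicates without saying how cultures were separated, so a p-value here reflects the spread among these arrays, which may be technical. The number of arrays limited the precision. H3.Y is encoded by H3Y1 and H3.X by H3Y2; of 33297 probe sets, 0 carried either symbol, and the depth of either knockdown was not analysed here. Markers of the line were present: VIM had a mean of 10.92 log2 units in H3.Y cells and 10.80 in combined cells, SPARC 10.14 and 11.44, and CDH2 8.30 and 9.38. PTPRC, the common leukocyte marker, lay at 2.12 in both groups, and the endothelial marker PECAM1 at 3.43 and 3.44.

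A difference was called at a Benjamini-Hochberg adjusted p under 0.05 in limma, fitted on all 6 arrays and adjusted over all probe sets. Of the 19460 probe sets, 779 were higher in the combined knockdown (4.00%) and 518 were lower (2.66%), which made 1297 (6.66%) naming 759 and 502 genes. Over all 33297 probe sets, 914 were higher and 640 lower (4.67% in all). The median called rise was 2.08-fold and the median called fall 2.02-fold. At least 4-fold differences were found for 55 of the called rises and 25 of the called falls. Over all genes, the median difference was log2 -0.014 and the median size of a difference was log2 0.20, against a median standard error of 0.16. Fewer calls were made from fewer arrays: over all probe sets, 9 rises and 3 falls were called without combined replicate 1, 28 and 17 without combined replicate 2, and 319 and 177 without H3.Y replicate 1. A fit without 1 array of a knockdown leaves a lone array in that group, which is assumed to vary like the other groups, so a call lost there does not by itself show a smaller difference. At an unadjusted p under 0.05, 2168 rises and 1802 falls were counted without combined replicate 1, and 2340 and 2066 without combined replicate 2, against 3237 and 3090 with all arrays. Without H3.Y replicate 2 the counts were 905 and 736. Without either luciferase array they were 302 and 146, which equals the fit on the 4 compared arrays alone, since a lone luciferase array adds no estimate of the spread.

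Each called probe set was placed by its distances from luciferase. It was put on the combined side where the combined mean lay at least 2 times as far from the luciferase mean as the H3.Y mean did, and on the H3.Y side in the reverse case. The combined side held 578 of the 1297 called probe sets (44.6%), and the H3.Y side 333 (25.7%). In the other 386 (29.8%), the 2 means lay on opposite sides of the luciferase mean, and 0 had both on the same side with like distances. Among probe sets with 1 symbol, 3 were called against luciferase in both knockdowns and in opposite directions. Over all 19460 probe sets the shares were 29.0% combined side, 29.0% H3.Y side, 14.7% opposite and 27.4% same direction. Requiring a difference between the knockdowns itself favours the first 3 classes, so these shares are a description. Of the 779 rises, 308 were on the combined side, 221 on the H3.Y side and 250 in between, and of the 518 falls 270, 112 and 136. Against luciferase itself, 519 of the 19460 probe sets were called in the combined knockdown (2.67%) and 75 after H3.Y siRNA (0.385%). Of the rises, 547 were called in neither of those comparisons, and of the falls 323, so for these the side rests on means without a test. On the H3.Y side, H3.Y replicate 1 lay farther from luciferase than replicate 2 for 261 of the 333 probe sets, with median distances of log2 1.06 and 0.86. On the combined side, combined replicate 1 lay farther for 397 of the 578, with 1.03 and 0.95.

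**Figure D1:**
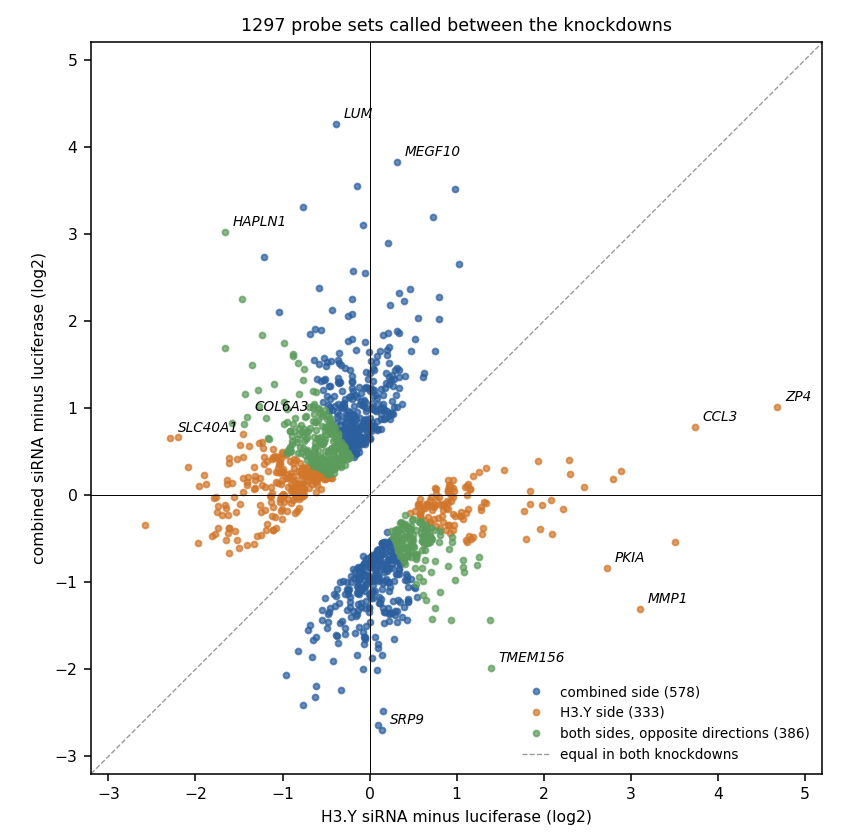
Mean log2 difference from luciferase in the combined knockdown (vertical) against that in the H3.Y knockdown (horizontal) for the 1297 probe sets called between the knockdowns, coloured by side. Both axes subtract the same 2 luciferase arrays, so the layout shows the side of each call and no relation between the axes; LUM and MEGF10 stand along the vertical axis, while ZP4 and CCL3 stand along the horizontal axis.

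The largest called rises were of HAPLN1 and LUM. HAPLN1, which links hyaluronan to proteoglycans, lay at 8.85 and 8.79 log2 units in the combined arrays, 3.57 and 4.71 in the H3.Y arrays and 5.76 and 5.84 in the luciferase arrays. Its difference between the knockdowns was log2 4.68 ± 0.34 (SE, n = 2 per group), or 25.6-fold, with an adjusted p of 0.00507. LUM, the collagen-binding proteoglycan lumican, lay at 6.29 and 6.59 in the combined arrays, 1.85 and 1.72 in the H3.Y arrays and 2.39 and 1.96 in the luciferase arrays. The H3.Y and luciferase levels of LUM were near the floor of the arrays, so its fold of 25.2 (log2 4.65 ± 0.20, adjusted p = 0.00345) depends on that floor. With 32 added to the linear values before the logarithm, the LUM difference was log2 1.75 and the HAPLN1 difference 3.26. HAPLN1 separated the knockdowns from both directions, whereas LUM separated the combined arrays from the other 4.

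TNFRSF11B, or osteoprotegerin, a secreted decoy receptor that limits osteoclast formation, lay at 9.14 and 10.00 in the combined arrays, 5.36 and 5.63 in the H3.Y arrays and 6.08 and 6.45 in the luciferase arrays. It was 16.9-fold higher in the combined knockdown (log2 4.08 ± 0.30, adjusted p = 0.00507). MEGF10, an engulfment receptor, rose by log2 3.52 ± 0.20, and the actin-like gene ACTBL2 by 3.70 ± 0.23, both with H3.Y means within log2 0.31 of luciferase.

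EPCAM, an epithelial adhesion molecule, was measured by a pair of probe sets. The first lay at 7.69 and 7.88 in the combined arrays and 3.34 and 4.34 in the H3.Y arrays, a difference of log2 3.95 ± 0.31. The other differed by log2 2.46 ± 0.18, and both passed (adjusted p = 0.00546 and 0.00507). L1CAM, a neural adhesion molecule, rose by log2 2.96 ± 0.17, EDIL3, an integrin-binding matrix protein, by 3.35 ± 0.22, and LOXL4, a lysyl oxidase that crosslinks collagen, by 3.72 ± 0.21. Among the rest of the 15 largest rises were SLN (sarcolipin, an inhibitor of the calcium pump), LCTL, TENM2 (a teneurin adhesion receptor), SLC40A1 and LIPA, at log2 2.85 to 3.14.

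SLC40A1, the iron exporter ferroportin, and LIPA, the lysosomal acid lipase, were the 2 of these 15 on the H3.Y side. SLC40A1 lay at 3.82 and 4.60 in the H3.Y arrays, 6.26 and 6.74 in the luciferase arrays and 7.07 and 7.26 in the combined arrays. LIPA lay at 5.18 and 6.23, 7.85 and 7.96, and 8.64 and 8.50 in the same order. For both genes the H3.Y arrays were the low ones, and the combined means lay within log2 0.67 of luciferase. All 15 rises kept their call without H3.Y replicate 2 or without either luciferase array, and 14 without H3.Y replicate 1, where TENM2 was not called. Without combined replicate 1, 7 stayed called, and HAPLN1, EPCAM (either probe set), ACTBL2, EDIL3, SLN, SLC40A1, LIPA and TENM2 did not, at adjusted p from 0.0631 (ACTBL2, EDIL3 and SLN) to 0.0988 (LIPA). Their differences stayed near those with all arrays: HAPLN1 differed by log2 4.65, ACTBL2 by 3.66, SLN by 2.97 and LIPA by 2.80 in that fit. Without combined replicate 2, 11 stayed called, and EPCAM (its first probe set), SLC40A1, LIPA and TENM2 did not.

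**Figure D2:**
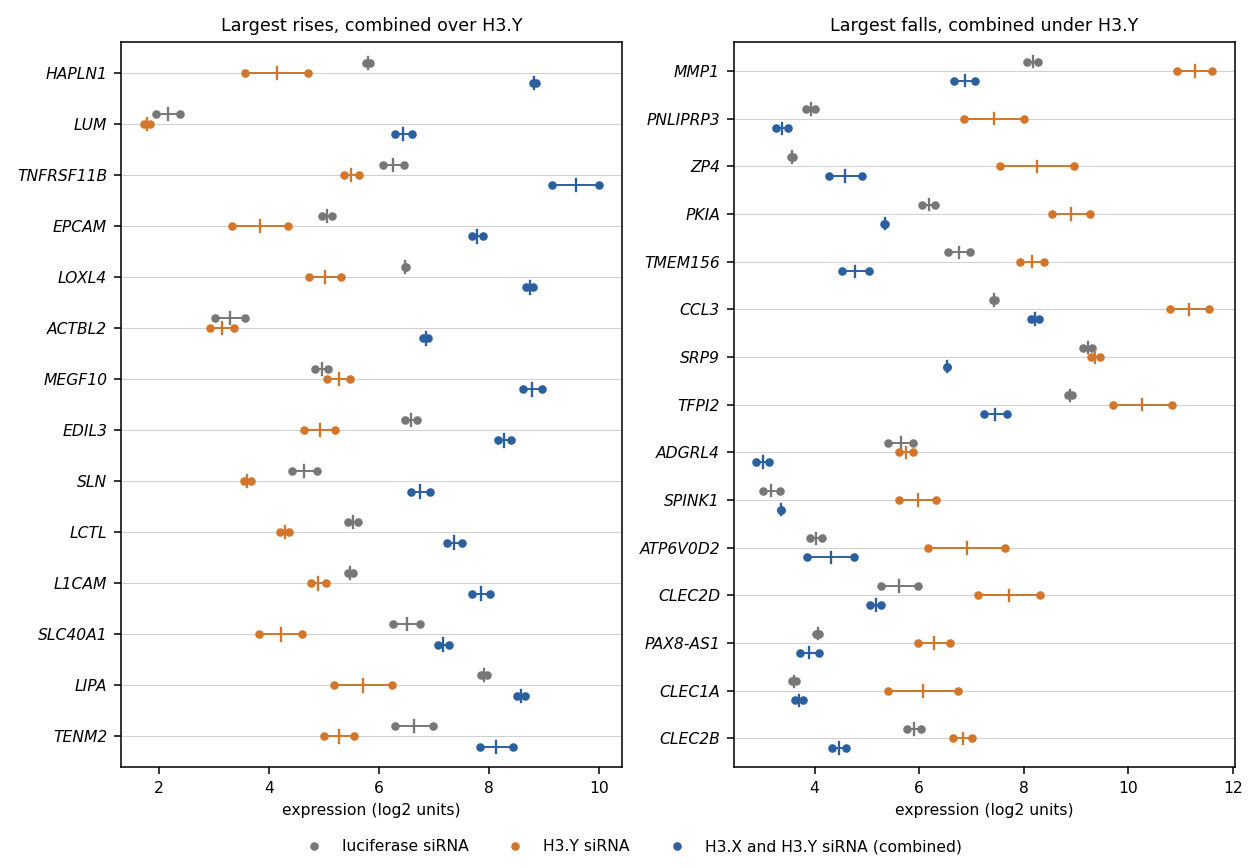
Log2 expression in each of the 6 arrays for 14 of the 15 largest called rises and the 15 largest called falls of the combined knockdown against H3.Y; dots are arrays, ticks group means and lines join the 2 arrays of a group. Among the falls, the H3.Y arrays of MMP1, ZP4 and CCL3 stand above the other 4, while the combined arrays of SRP9 and ADGRL4 stand below them.

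Of the 15 largest falls, 10 were of genes on the H3.Y side, which stood high after H3.Y siRNA. MMP1, the interstitial collagenase, lay at 11.61 and 10.94 log2 units in the H3.Y arrays, 6.67 and 7.06 in the combined arrays and 8.07 and 8.27 in the luciferase arrays. It was 21.2-fold lower in the combined knockdown than in the H3.Y knockdown (log2 -4.40 ± 0.25, adjusted p = 0.00345). PNLIPRP3, a pancreatic lipase-related gene, lay at 8.01 and 6.86 in the H3.Y arrays and between 3.27 and 4.01 in the other 4. ZP4, an egg-coat glycoprotein, lay at 8.96 and 7.55 in the H3.Y arrays, 4.27 and 4.91 in the combined arrays and 3.55 and 3.59 in the luciferase arrays. The differences of PNLIPRP3 and ZP4 were log2 -4.05 ± 0.35 and -3.67 ± 0.45 (adjusted p = 0.00652 and 0.0139), and in both genes H3.Y replicate 1 lay above replicate 2 by over 1 log2 unit.

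CCL3, a macrophage-attracting chemokine whose near-identical gene copies may share its probes, lay at 11.53 and 10.79 in the H3.Y arrays, 8.14 and 8.29 in the combined arrays and 7.41 and 7.45 in the luciferase arrays. Its difference was log2 -2.95 ± 0.24 (adjusted p = 0.00576). PKIA, an inhibitor of protein kinase A, differed by log2 -3.56 ± 0.25, and the trypsin inhibitor SPINK1 by -2.61 ± 0.25. ATP6V0D2, a proton pump subunit, differed by -2.61 ± 0.50, with an adjusted p of 0.0409 and H3.Y arrays at 7.65 and 6.18. The long noncoding RNA PAX8-AS1 fell by 2.38 ± 0.23. The C-type lectins CLEC2D, CLEC1A and CLEC2B differed by -2.55 ± 0.41, -2.37 ± 0.40 and -2.36 ± 0.19.

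A pair of the 15 falls lay on the combined side. SRP9, which belongs to the particle that brings ribosomes to the endoplasmic reticulum, lay at 6.53 and 6.52 in the combined arrays, 9.45 and 9.29 in the H3.Y arrays and 9.14 and 9.31 in the luciferase arrays. Its difference was log2 -2.84 ± 0.14 (adjusted p = 0.00345), and the other SRP9 probe set gave -2.64 ± 0.17. ADGRL4, an adhesion receptor known from endothelium, lay at 2.89 and 3.13 in the combined arrays and between 5.40 and 5.89 in the other 4 arrays, with a difference of log2 -2.74 ± 0.21. TMEM156, TFPI2 (a serine protease inhibitor of the matrix) and CLEC2B lay between, with H3.Y above luciferase and combined below it. TMEM156 had means of 8.15 in H3.Y, 6.76 in luciferase and 4.78 in combined arrays. All 15 falls were called without H3.Y replicate 2, 13 without H3.Y replicate 1 (not ATP6V0D2 or CLEC2D), and 11 without either luciferase array (not those, CLEC1A or TFPI2). Without combined replicate 2, 5 of the falls were called, namely MMP1, SRP9, ADGRL4, PKIA and TMEM156. Without combined replicate 1, MMP1 and SRP9 were the 2 called.

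Promoters of the falls were searched for all the motifs listed under the processing. The AP-1 site is described because its share among the named falls lay farthest above that of array genes. AP-1, a dimer of JUN and FOS proteins, is a known activator of matrix protease genes, but MMP1 was not among the falls with a promoter. Of the 15 named falls, 9 had a promoter in the RefSeq table (GRCh38.p14), and 5 of these held TGANTCA, on either strand, in the 250 bases before the start. ADGRL4, CLEC2D, PNLIPRP3, TFPI2 and TMEM156 held it, 1 of 11 named rises did (LCTL), and 7.06% of the 14239 array genes with a promoter did (8.06% of 27305 genes). Over all called falls the share was 7.90%, close to that of all array genes, so the letters did not mark falls at large. The stretches of 3 of these genes are given because they include both H3.Y-side and intermediate falls, with the match in capitals. The match of PNLIPRP3 begins 104 bases before the start (chr10:116427711-116427780, plus strand), that of TMEM156 81 before (chr4:39032453-39032522, minus strand) and that of TFPI2 87 before (chr7:93890803-93890872, minus strand). A match is a description and no evidence of binding.
PNLIPRP3: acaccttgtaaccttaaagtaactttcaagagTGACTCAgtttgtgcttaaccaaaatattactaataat
TMEM156: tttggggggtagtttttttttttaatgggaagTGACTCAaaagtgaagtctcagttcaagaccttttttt
TFPI2: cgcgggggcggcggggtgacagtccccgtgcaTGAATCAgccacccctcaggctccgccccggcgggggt

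Gene lists were read with 1 probe set per gene, of which 746 of 18417 were called higher (4.05%) and 494 lower (2.68%). Collagen genes, which encode the main fibres and networks of the matrix, were called higher for 6 of 21 and lower for 0, with a median difference of log2 0.43. COL6A3, a chain of the microfibrillar collagen VI, lay at 9.76 and 9.56 log2 units in the combined arrays, 7.24 and 7.47 in the H3.Y arrays and 8.83 and 8.70 in the luciferase arrays (log2 2.31 ± 0.15, adjusted p = 0.00499). COL1A1, a chain of collagen I, lay at 10.73 and 10.42, 8.33 and 8.62, and 9.06 and 8.93 in the same order (2.10 ± 0.17, adjusted p = 0.00576). In both genes the order was combined, luciferase, H3.Y with no overlap between groups. COL11A1 rose by 1.74 ± 0.13, COL4A1 of the basement membrane by 1.64 ± 0.23, COL12A1 by 1.45 ± 0.24 and COL3A1 by 1.13 ± 0.15. COL1A2, the partner chain of COL1A1, differed by 0.34 ± 0.15 and did not pass (adjusted p = 0.298). The count of 6 was 0 without combined replicate 1, 2 without combined replicate 2, 4 without H3.Y replicate 1, 6 without H3.Y replicate 2 and 5 without either luciferase array.

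Matrix glycoproteins, proteoglycans and lysyl oxidases were called higher for 13 of 38 and lower for 0, with a median of log2 0.42. HAPLN1, LUM and LOXL4 led the list. THBS1, or thrombospondin 1, which binds matrix and activates latent TGF-beta, lay at 12.02 and 11.88 in the combined arrays, 9.18 and 9.19 in the H3.Y arrays and 9.80 and 8.95 in the luciferase arrays (log2 2.76 ± 0.27, adjusted p = 0.0081). FN1, fibronectin, lay at 11.93 and 11.55, 9.40 and 10.26, and 9.40 and 9.34 (1.91 ± 0.29, adjusted p = 0.0236). THBS1 and FN1 were thus high in the combined arrays against the other 4. NID1, a basement membrane linker, differed by 1.89 ± 0.28 from the H3.Y side, with H3.Y arrays at 5.07 and 5.91 against 6.86 and 7.02 in luciferase. EFEMP1 (2.49 ± 0.33), MFAP5 (1.38 ± 0.21), SPARC (1.31 ± 0.18), the heparan sulphate proteoglycan HSPG2 (1.06 ± 0.20), FBLN5 (0.84 ± 0.16), LAMC1 (0.74 ± 0.15) and FBN2 (0.73 ± 0.15) made up the rest. The count of 13 was 2 without combined replicate 1, 3 without combined replicate 2, 7 without H3.Y replicate 1, 9 without H3.Y replicate 2 and 5 without either luciferase array.

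**Figure D3:**
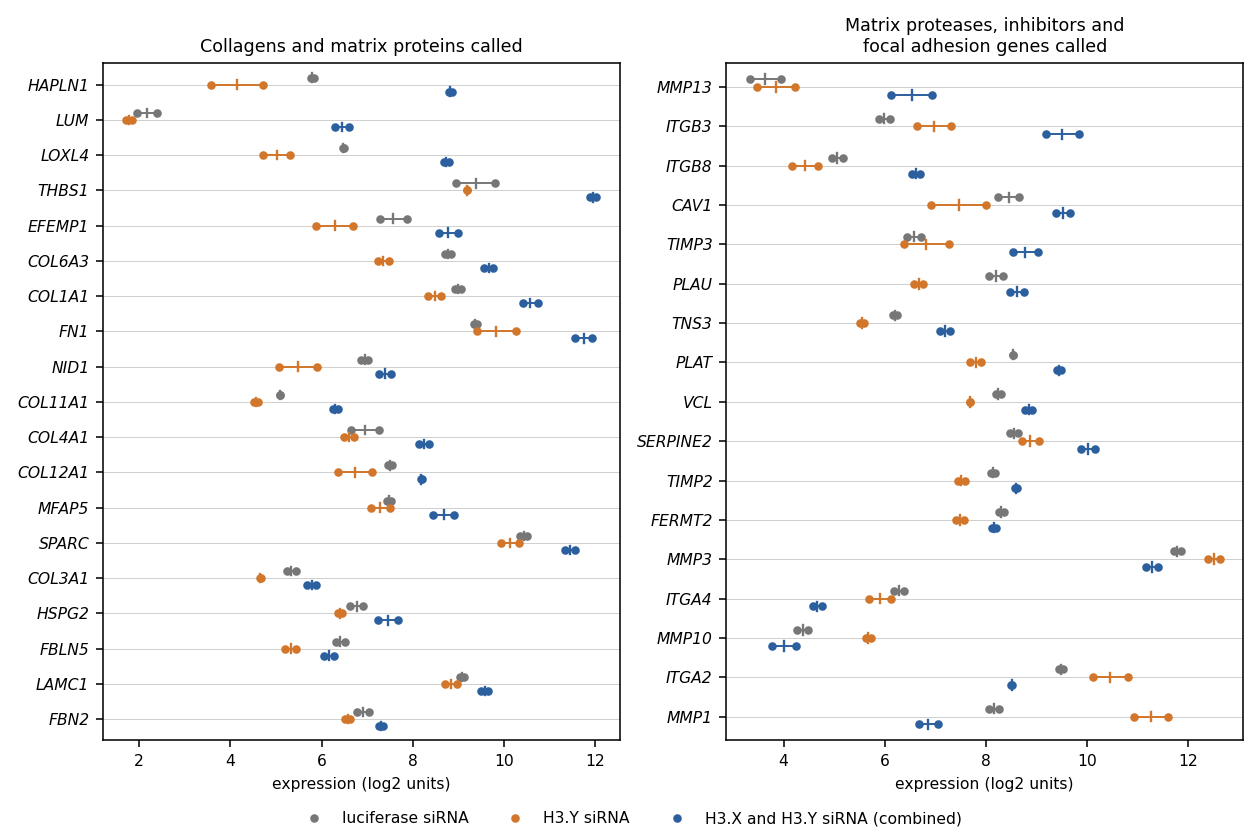
Log2 expression in each array for the called collagens and matrix proteins (left) and the called matrix proteases, inhibitors and focal adhesion genes (right); dots are arrays, ticks group means. All 19 genes on the left are higher in the combined arrays than in the H3.Y arrays, while MMP1, ITGA2, MMP10, ITGA4 and MMP3 on the right are lower.

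Matrix proteases and their inhibitors split in direction, with 6 of 23 higher and 3 lower and a median of log2 0.35. Beside MMP1, the stromelysins MMP10 and MMP3 fell, with differences of log2 -1.68 ± 0.19 and -1.22 ± 0.16 (adjusted p = 0.0116 and 0.0163). MMP10 lay at 5.73 and 5.62 in the H3.Y arrays, 4.24 and 3.76 in the combined arrays and 4.27 and 4.48 in the luciferase arrays. MMP13, another collagenase, rose: it lay at 6.94 and 6.13 in the combined arrays, 4.23 and 3.48 in the H3.Y arrays and 3.95 and 3.33 in the luciferase arrays (2.68 ± 0.37, adjusted p = 0.0189). Between the collagenases, MMP1 was thus the one high after H3.Y siRNA and MMP13 the one high in the combined knockdown. The protease inhibitors TIMP3, TIMP2 and SERPINE2 rose by 1.95 ± 0.32, 1.08 ± 0.13 and 1.14 ± 0.18, and the plasminogen activators PLAU and PLAT by 1.94 ± 0.17 and 1.64 ± 0.14. PLAU, the urokinase, was low in the H3.Y arrays (6.76 and 6.59 against 8.34 and 8.05 in luciferase). The counts were 0 higher and 1 lower without either combined array, 6 and 1 without H3.Y replicate 1, 5 and 4 without H3.Y replicate 2, and 4 and 3 without either luciferase array. The median was 0.59 without H3.Y replicate 1, 0.03 without H3.Y replicate 2 and 0.18 without combined replicate 1.

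Integrins, the matrix receptors, and other focal adhesion genes were called higher for 6 of 27 and lower for 2, with a median of log2 0.21. ITGB3, the beta3 subunit of the vitronectin receptor, lay at 9.83 and 9.19 in the combined arrays, 7.31 and 6.65 in the H3.Y arrays and 6.10 and 5.88 in the luciferase arrays (2.53 ± 0.29, adjusted p = 0.0119). ITGB8 rose by 2.19 ± 0.20. ITGA2, a collagen receptor subunit, fell: it lay at 8.50 and 8.52 in the combined arrays, 10.80 and 10.13 in the H3.Y arrays and 9.45 and 9.52 in the luciferase arrays (-1.95 ± 0.23, adjusted p = 0.0119). ITGA4, a fibronectin and VCAM1 receptor subunit, fell by 1.25 ± 0.19. Among the called subunits, ITGB3 and ITGB8 were thus higher and ITGA2 and ITGA4 lower in the combined arrays than in the H3.Y arrays. CAV1 (2.06 ± 0.36), TNS3 (1.65 ± 0.14), VCL, the actin linker vinculin (1.16 ± 0.13), and FERMT2, an integrin activator (0.67 ± 0.13), rose. No member passed (0 of 27) without combined replicate 1 or without combined replicate 2. The counts were 4 higher and 2 lower without H3.Y replicate 1, 6 and 3 without H3.Y replicate 2, and 4 and 1 without either luciferase array.

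Actin cytoskeleton and smooth muscle contractile genes were called higher for 6 of 24 and lower for 1, with a median of log2 0.24. The calponins CNN1 and CNN3 rose by 1.51 ± 0.14 and 1.50 ± 0.18, CDC42EP3 by 1.05 ± 0.19 and tropomyosin TPM1 by 1.01 ± 0.16. ACTA2, smooth muscle actin, went the other way: it lay at 7.86 and 7.86 in the H3.Y arrays, 6.92 and 6.65 in the combined arrays and 6.92 and 6.50 in the luciferase arrays (-1.07 ± 0.19, adjusted p = 0.0318). The contractile markers ACTA2 and CNN1 therefore did not move together. With a combined array left out, 1 was called higher and 0 lower for either array. The counts were 3 and 0 without H3.Y replicate 1 or without either luciferase array, and 6 and 0 without H3.Y replicate 2.

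Genes of signals that act on the matrix were called in both directions. Among TGF-beta, activin and BMP genes, 4 of 35 were higher and 1 lower. The ligand TGFB2 lay at 9.77 and 9.34 in the combined arrays, 6.85 and 7.66 in the H3.Y arrays and 7.84 and 7.16 in the luciferase arrays (log2 2.30 ± 0.34, adjusted p = 0.0222). INHBA, the subunit of activin A, rose by 1.64 ± 0.24, and the ligand BMP6 fell by 1.15 ± 0.18. The receptors TGFBR3 and BMPR2 differed by 0.79 ± 0.16 and 0.72 ± 0.15, with the low values in the H3.Y arrays. Among these 5 calls, the ligands lay on the combined side and the receptors on the H3.Y side. The receptors passed narrowly, at limma adjusted p of 0.0476 (TGFBR3) and 0.0498 (BMPR2). BMPR2 was not called after median centring or repeated quantile normalization. With probe sets of 1 symbol only, 10 of the list were called higher and 1 lower, so no rule for ligands and receptors is drawn. Of 26 growth factor immediate early and MAPK feedback genes, the AP-1 subunits FOSL2 (1.45 ± 0.21) and JUN (0.82 ± 0.14) rose and the MAPK inhibitor SPRED1 fell (-0.69 ± 0.13). Of 20 FOXO-responsive genes, TXNIP and SESN3 rose and ARRDC3 fell. TXNIP, which binds thioredoxin and limits glucose uptake, lay at 10.85 and 10.93 in the combined arrays, 8.25 and 8.60 in the H3.Y arrays and 7.28 and 8.11 in the luciferase arrays (2.47 ± 0.28, adjusted p = 0.0116). SESN3, a sestrin, rose by 2.50 ± 0.17, and ARRDC3 differed by -1.16 ± 0.22. Without combined replicate 1, 0 genes of these 3 lists were called. Without combined replicate 2, 1 was called, a FOXO-responsive gene. Without H3.Y replicate 1 or without either luciferase array, 1 TGF-beta gene, 1 immediate early gene and 2 FOXO-responsive genes were called, all higher, and without H3.Y replicate 2 the counts higher and lower were 4 and 1, 2 and 0, and 2 and 1. The median of the FOXO-responsive list was 0.09 with all arrays, 0.27 without H3.Y replicate 1 and -0.05 without H3.Y replicate 2, so its sign rested on that array.

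Markers of cell types were read beside these groups. Of 10 mesenchymal and osteosarcoma line markers, 4 were called higher (CDH2, SPARC, FN1 and COL1A1) and 0 lower, with a median of log2 0.43. Of these, 3 also stand in the matrix lists. The mean level of the list was 7.38 and 7.53 in the H3.Y arrays, 8.29 and 8.11 in the combined arrays and 7.59 and 7.43 in the luciferase arrays. VIM, the intermediate filament of mesenchymal cells, had means of 10.92 and 10.80. Of 13 epithelial markers, 3 were called higher (EPCAM, CLDN4 and KRT14) and 0 lower. CLDN4, a tight junction claudin, lay at 6.38 and 6.13 in the combined arrays and 4.90 and 4.57 in the H3.Y arrays (1.51 ± 0.17), and KRT14, a basal keratin, rose by 0.86 ± 0.15. CDH1, or E-cadherin, had means of 4.27 and 4.87 and was not called, and the epithelial regulators ESRP2 and GRHL2 had means of 4.24 and 3.69 in the combined arrays. The keratins KRT8 and KRT18 had means of 11.51 and 10.73 in the combined arrays and were not called. The mean of the epithelial list was 5.49 and 5.60 in the H3.Y arrays, 6.11 and 6.07 in the combined arrays and 5.83 and 5.69 in the luciferase arrays. The mesenchymal count was 0 without combined replicate 1, 1 without combined replicate 2, 3 without H3.Y replicate 1, 4 without H3.Y replicate 2 and 1 without either luciferase array. The epithelial count was 0, 1, 2, 3 and 2 in the same order.

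Of 22 osteoblast and bone remodelling genes, TNFRSF11B, COL1A1 and SPARC were higher and 0 were lower, while the median was log2 -0.08. RUNX2, the master regulator of osteoblasts, had means of 5.24 and 5.70 (0.46 ± 0.19, adjusted p = 0.264). SPP1, osteopontin, had means of 9.69 in H3.Y and 8.04 in combined arrays, but its standard error of 0.53 left it uncalled (adjusted p = 0.154). Of 25 endothelial-type and angiogenic genes, 5 fell and 1 rose. Beside ADGRL4, ESM1, a secreted proteoglycan, lay at 5.63 and 6.39 in the combined arrays, 7.91 and 7.92 in the H3.Y arrays and 8.25 and 8.24 in the luciferase arrays (-1.90 ± 0.24, adjusted p = 0.0157). STC1 (-1.89 ± 0.17), the Notch target HEY1 (-1.60 ± 0.21) and ANGPT2, a TEK ligand (-0.75 ± 0.13), fell, and the VEGF co-receptor NRP1 rose by 0.77 ± 0.16. None of the 8 endothelial defining markers passed (0 called, median 0.01), and the mean of those 8 ran from 4.35 to 4.55 over the 6 arrays. The osteoblast median was 0.01 without H3.Y replicate 2. The osteoblast count was 1 without combined replicate 1, 2 without combined replicate 2 and 2 without either luciferase array. The endothelial-type falls numbered 0 and 2 without combined replicates 1 and 2, 3 and 4 without H3.Y replicates 1 and 2, and 2 without either luciferase array, and NRP1 was called in none of these 6 fits.

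Interferon-stimulated genes, which are switched on by STAT and IRF factors in antiviral responses, were called higher for 10 of 46 and lower for 0, with a median of log2 0.50. The share called higher over all genes was 4.05%, as above. Groups of arrays did not overlap, with the combined arrays higher, for 30 of the 46, against 26.5% of all genes in that direction and 27.6% in the other. IFIT1, an RNA-binding antiviral protein, lay at 5.98 and 6.14 in the combined arrays, 3.83 and 4.75 in the H3.Y arrays and 5.25 and 5.78 in the luciferase arrays (1.77 ± 0.32, adjusted p = 0.0366). IFIT3 lay at 6.28 and 6.85, 5.10 and 4.89, and 5.03 and 5.37 (1.57 ± 0.23, adjusted p = 0.0215). IFIT1 was low after H3.Y siRNA, whereas IFIT3 was high in the combined knockdown. IFI44 (1.48 ± 0.20), the transcription factor IRF1 (1.27 ± 0.22), the RNA sensors OAS1 and OASL (1.24 ± 0.17 and 1.19 ± 0.19), TRIM22 (1.18 ± 0.17), HERC6 (0.98 ± 0.15), PARP14 (0.94 ± 0.19) and SAMD9 (0.88 ± 0.16) also passed. PARP9 differed by 1.47 ± 0.38 and DDX60 by 1.18 ± 0.25 without passing (adjusted p = 0.089 and 0.0568), and PSMB8 by -0.81 ± 0.19 (adjusted p = 0.0743).

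The interferon rises were modest against luciferase. The list median was log2 0.31 for the combined knockdown and -0.17 for H3.Y siRNA, each against the same luciferase arrays. Of the 10 called genes, 6 lay on the combined side, IFIT1 on the H3.Y side, and IFI44, OAS1 and HERC6 between. TRIM22 and IFIT3 were called against luciferase in the combined knockdown (adjusted p = 0.0307 and 0.0467). The mean level of the 46 genes was 5.93 and 6.18 in the combined arrays, 5.47 and 5.59 in the H3.Y arrays and 5.64 and 5.86 in the luciferase arrays. The count of 10 was 0 without either combined array, 1 without H3.Y replicate 1, 6 without H3.Y replicate 2 and 2 without either luciferase array, while the median stayed between 0.40 and 0.67. Combined replicate 2 thus carried the higher interferon level of its group, and replicate 2 was also the higher array in the luciferase and H3.Y groups.

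Promoters of the interferon genes were searched for GAAANNGAA, the core of the interferon-stimulated response element, on both strands in the 250 bases before the start. This motif was added after the rise of the list had been seen. It stood in 25 of the 38 listed genes with a promoter (65.8%), in 5 of the 8 called ones and in 7.88% of array genes (8.41% of all genes with a promoter). Over all called rises its share was 7.72%. The called genes with a match were IFI44, IFIT1, IFIT3, PARP14 and SAMD9. The stretches of 3 are given with matches in capitals, all on the plus strand of GRCh38.p14. The matches begin 115 and 102 bases before the start in IFIT1 (chr10:89392485-89392564), 155 and 121 in IFIT3 (chr10:89327840-89327919) and 17 in IFI44 (chr1:78649709-78649788).
IFIT1: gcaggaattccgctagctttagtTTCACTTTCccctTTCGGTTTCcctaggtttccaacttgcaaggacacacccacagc
IFIT3: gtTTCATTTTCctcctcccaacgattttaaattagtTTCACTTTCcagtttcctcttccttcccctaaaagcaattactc
IFI44: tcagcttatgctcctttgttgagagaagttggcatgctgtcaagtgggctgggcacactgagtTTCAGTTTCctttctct
In all 3 genes the capitals are the reverse complement of the searched letters.

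**Figure D4:**
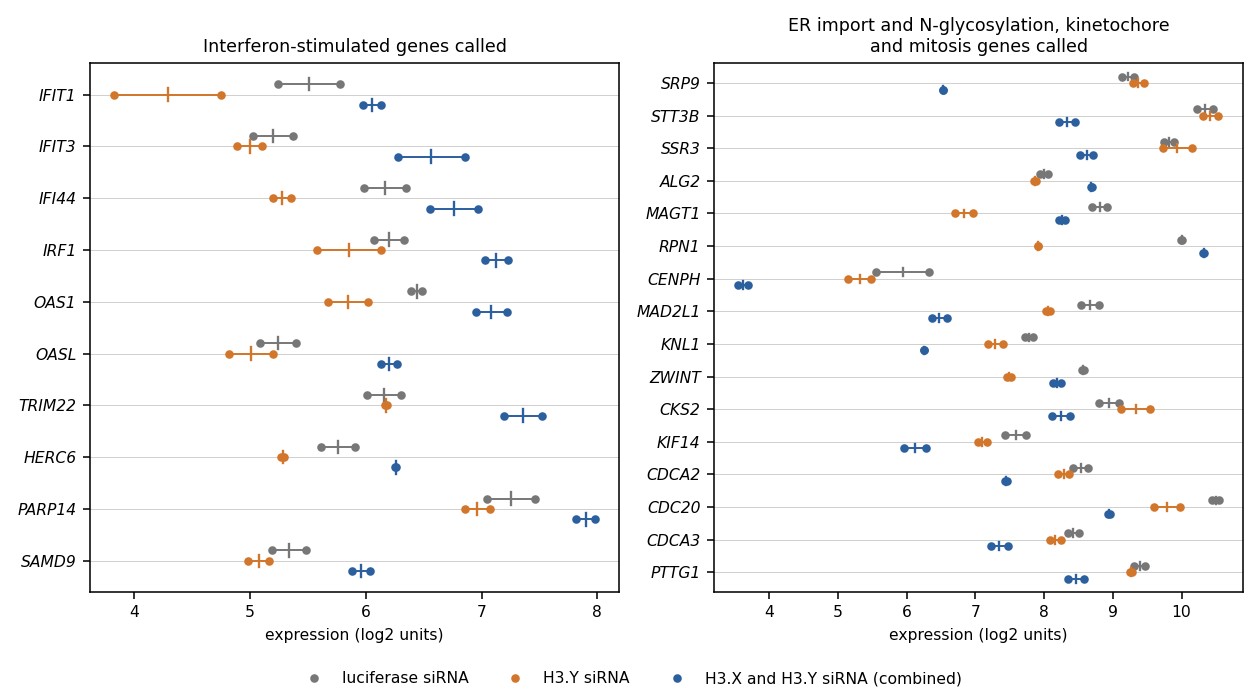
Log2 expression in each array for the called interferon-stimulated genes (left) and the called ER import and N-glycosylation, kinetochore and mitosis genes (right); dots are arrays, ticks group means. Combined arrays lie above H3.Y arrays for all 10 interferon genes; on the right, RPN1 and MAGT1 are low in the H3.Y arrays, and SRP9, STT3B and MAD2L1 are low in the combined arrays.

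Chemokines, cytokines and NF-kB targets were called in both directions, 1 higher and 3 lower of 34, with a median of log2 -0.03. All genes gave 4.05% higher and 2.68% lower. CCL3, HCAR3 and PTGS2 fell. HCAR3, a hydroxycarboxylic acid receptor, lay at 5.47 and 5.17 in the H3.Y arrays and between 2.97 and 3.31 in the other 4 (-2.06 ± 0.15, adjusted p = 0.00507). PTGS2, the inducible cyclooxygenase, lay at 6.36 and 6.51 in the H3.Y arrays, 4.68 and 4.72 in the combined arrays and 4.96 and 5.33 in the luciferase arrays (-1.74 ± 0.17, adjusted p = 0.00785). CCL2, a monocyte chemokine, went the other way, at 7.73 and 8.20 in the combined arrays, 6.52 and 6.56 in the H3.Y arrays and 7.60 and 7.37 in the luciferase arrays (1.43 ± 0.19, adjusted p = 0.0169). The chemokines CCL3 and CCL2 therefore stood on opposite sides of this comparison. Blood cell markers gave 0 called higher and 1 lower of 10, the lysosomal CD68 at 9.46 in H3.Y and 7.98 in combined arrays (-1.48 ± 0.25, adjusted p = 0.0314). CD68 was not called without either combined array, H3.Y replicate 1 or either luciferase array. LCP1, also listed there, had means of 10.38 and 9.98. The mean of the blood list was 5.44 and 5.27 in the H3.Y arrays, 5.33 and 5.09 in the combined arrays and 5.24 and 5.09 in the luciferase arrays. Among 11 neuroectodermal and germ line markers, ZP4 and SYP fell and 0 rose. Without either combined array, 0 chemokine or NF-kB genes were called, and without H3.Y replicates 1 and 2 the counts were 0 higher with 3 lower and 2 higher with 7 lower. The list median was 0.16 without H3.Y replicate 1.

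Some genes of mitosis fell, most of those measured were not called, and the medians of these lists were below luciferase in both knockdowns. Of 50 genes of mitotic entry, spindle and cytokinesis, 0 were higher and 6 lower (2.68% of all genes were lower), with a median of log2 -0.12. CKS2, a CDK subunit, lay at 8.11 and 8.38 in the combined arrays, 9.55 and 9.11 in the H3.Y arrays and 8.80 and 9.09 in the luciferase arrays (-1.09 ± 0.20, adjusted p = 0.0387). The kinesin KIF14 (-0.98 ± 0.18), CDCA2 (-0.84 ± 0.14), CDCA3 (-0.82 ± 0.15) and PTTG1, or securin (-0.81 ± 0.15), also fell. CDC20, the activator of the anaphase-promoting complex, stepped down, at 10.55 and 10.44 in the luciferase arrays, 9.59 and 9.97 in the H3.Y arrays and 8.92 and 8.96 in the combined arrays (-0.84 ± 0.16 between the knockdowns, adjusted p = 0.0432). Of 37 kinetochore, centromere and spindle checkpoint genes, 3 fell and 1 rose. MAD2L1, a checkpoint protein that restrains CDC20, lay at 6.37 and 6.59 in the combined arrays, 8.02 and 8.08 in the H3.Y arrays and 8.54 and 8.80 in the luciferase arrays (-1.57 ± 0.16, adjusted p = 0.00824). The kinetochore proteins CENPH (-1.69 ± 0.27) and KNL1 (-1.04 ± 0.14) fell, and ZWINT, their partner, rose by 0.70 ± 0.13, with H3.Y arrays at 7.47 and 7.52 against 8.55 and 8.58 in luciferase. Against luciferase, the median of the mitosis list was log2 -0.58 in the combined knockdown and -0.41 after H3.Y siRNA, and of the kinetochore list -0.53 and -0.49.

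The mitotic calls were thin. The 6 mitotic falls became 0 without either combined array and without either luciferase array, and 1 without either H3.Y array. The 3 kinetochore falls became 0 without either combined array, 1 and 4 without H3.Y replicates 1 and 2, and 2 without either luciferase array, and ZWINT was called in none of these 6 fits. The median of the mitosis list was -0.02 without combined replicate 1 and -0.20 without combined replicate 2. Of the 70 listed genes with a promoter, 49 (70%) held CCAAT on either strand, the box bound by NF-Y, which is known to activate G2 and mitosis genes. All 6 called falls with a promoter held it (CDC20, CDCA3, CKS2, KIF14, MAD2L1 and PTTG1), against 40.4% of array genes, 37% of all genes and 36.8% of all called falls. The box was thus common over both lists and not only among the falls. The stretches of CDC20 (chr1:43358871-43358980, plus strand, matches 100 and 55 bases before the start), CKS2 (chr9:89311100-89311189, plus strand, matches 70 and 52 before; another match, 148 before, lies outside the stretch) and MAD2L1 (chr4:120067009-120067098, minus strand, match 229 before) are given in GRCh38.p14 with the box in capitals.
CDC20: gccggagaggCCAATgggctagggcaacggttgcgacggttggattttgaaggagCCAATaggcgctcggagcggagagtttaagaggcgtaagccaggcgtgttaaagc
CKS2: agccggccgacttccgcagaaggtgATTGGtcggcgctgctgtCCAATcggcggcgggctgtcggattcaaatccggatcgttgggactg
MAD2L1: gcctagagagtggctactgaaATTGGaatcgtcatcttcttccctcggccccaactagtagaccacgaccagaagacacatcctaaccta
ATTGG is the box read on the other strand.

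Other cell cycle groups held few calls, where 4.05% of all genes were called higher and 2.68% lower. Of 52 DNA replication licensing and fork genes, 0 rose and 3 fell, with a median of log2 -0.07. GINS4, a subunit of the replicative helicase, lay at 6.36 and 6.45 in the combined arrays, 7.54 and 7.71 in the H3.Y arrays and 8.02 and 8.01 in the luciferase arrays (-1.23 ± 0.13, adjusted p = 0.0108). CHAF1B, of the chromatin assembly factor that deposits replication-coupled H3, fell by 1.01 ± 0.13, and the ribonucleotide reductase subunit RRM1 differed by -0.70 ± 0.13. Of 29 G1 cyclin, CDK inhibitor, RB and E2F genes, RBL2 and SKP2 rose and E2F5 and CCNA2 fell. RBL2, the pocket protein p130, lay at 7.54 and 7.59 in the combined arrays, 5.54 and 5.95 in the H3.Y arrays and 6.71 and 7.11 in the luciferase arrays (1.82 ± 0.20, adjusted p = 0.0115). E2F5, a transcription factor that binds pocket proteins, was high in the H3.Y arrays at 6.69 and 7.43 against 5.18 and 5.18 in the combined arrays (-1.88 ± 0.30). Cyclin A2, CCNA2, fell by 0.81 ± 0.14 and the ubiquitin ligase subunit SKP2 rose by 0.82 ± 0.14. RBL2 and E2F5 thus moved in opposite directions. The 3 replication falls became 0 without either combined array, 1 without H3.Y replicate 1, 2 without H3.Y replicate 2 and 2 without either luciferase array, and 3 rises were called without H3.Y replicate 2. The G1 counts were 0 without either combined array, 1 higher and 1 lower without H3.Y replicate 1 or either luciferase array, and 2 and 0 without H3.Y replicate 2.

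Histone genes themselves gave few calls. Of 50 replication-dependent histone genes, 0 were called when adjusted over all probe sets, with a median of log2 0.09. With probe sets of 1 symbol only, 2 were called higher and 1 lower. Arrays did not overlap for 15 with the combined arrays higher and 6 with them lower, where all genes gave 26.5% and 27.6%. With so few arrays, a count of 0 does not show that the levels were equal. The nearest were H3C1 at means of 7.27 in combined and 6.40 in H3.Y arrays (0.87 ± 0.18, adjusted p = 0.0516) and H2BC11 at 6.49 and 7.35 (-0.85 ± 0.18, adjusted p = 0.0542). Without H3.Y replicate 2, 4 members were called higher, and the median was -0.04 without H3.Y replicate 1. Copies of these genes are near-identical and their probes may be shared. Among 41 H3 variants, H3 chaperones and histone lysine modifiers, SUZ12 rose and SSRP1 fell. Over all genes 4.05% were called higher and 2.68% lower, so 1 call in each direction was near those shares. SUZ12, a core subunit of the Polycomb complex that methylates H3, lay at 8.15 and 8.27 in the H3.Y arrays, 8.98 and 9.08 in the combined arrays and 9.37 and 9.62 in the luciferase arrays (0.82 ± 0.15, adjusted p = 0.0339). SSRP1, of the histone chaperone FACT, fell by 0.72 ± 0.13. Of 30 direct p53 targets, TP53INP1 (1.41 ± 0.16) and PLK2 (1.48 ± 0.19) rose and 0 fell, with a median of 0.04. The p53 calls were also near the shares over all genes. The H3 chaperone count was 0 without either combined array, H3.Y replicate 1 or either luciferase array, and 1 lower without H3.Y replicate 2. The p53 count was 0 without either combined array, 2 higher without H3.Y replicate 1 or either luciferase array, and 3 higher with 1 lower without H3.Y replicate 2.

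ER protein import and N-glycosylation genes gave some of the widest differences, 3 higher and 3 lower of 47, with a median of log2 0.06. The 3 falls came from the combined side. Beside SRP9, STT3B, a catalytic subunit of the oligosaccharyltransferase that attaches N-glycans, lay at 8.21 and 8.45 in the combined arrays, 10.31 and 10.52 in the H3.Y arrays and 10.22 and 10.45 in the luciferase arrays (-2.09 ± 0.16, adjusted p = 0.00546). SSR3, of the translocon-associated complex, fell by 1.32 ± 0.18. The H3.Y side held RPN1 and MAGT1. RPN1, another oligosaccharyltransferase subunit, lay at 7.91 and 7.92 in the H3.Y arrays, 10.33 and 10.32 in the combined arrays and 10.01 and 9.99 in the luciferase arrays (2.41 ± 0.12, adjusted p = 0.00345). MAGT1, a subunit that works with STT3B, lay at 6.70 and 6.97, 8.30 and 8.21, and 8.70 and 8.92 in the same order (1.42 ± 0.16, adjusted p = 0.0116). Between the knockdowns, the lower oligosaccharyltransferase subunits were thus STT3B in the combined arrays and RPN1 and MAGT1 in the H3.Y arrays. MAGT1 also lay below both luciferase arrays in the combined arrays, by less than in the H3.Y arrays. ALG2, a mannosyltransferase of the glycan precursor, rose by 0.82 ± 0.13. The counts were 1 higher and 1 lower without combined replicate 1, 1 and 2 without combined replicate 2, 2 and 2 without H3.Y replicate 1 or either luciferase array, and 3 and 4 without H3.Y replicate 2. SRP9 and RPN1 were called with any 1 of the 6 arrays left out.

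Stress and protein turnover genes showed few calls when adjusted over all probe sets. The shares over all genes were 4.05% higher and 2.68% lower, and the stress response and chaperone counts were near them. Of 35 unfolded protein and integrated stress response genes, EIF2AK3, the kinase PERK, rose (log2 0.81 ± 0.14), and ATF4, a transcription factor translated on PERK signalling, and EDEM1 fell (-0.73 ± 0.13 and -0.92 ± 0.18). With probe sets of 1 symbol only, 7 of these stress genes were called higher and 5 lower, and with dim probe sets left out 6 and 4. Those fits also called more probe sets at large. Of 31 chaperones, HSPE1, the mitochondrial co-chaperonin, fell by 1.06 ± 0.12 and 0 rose. Of 40 proteasome and COP9 signalosome genes, 3 rose and 0 fell, all 3 with low values in the H3.Y arrays. The falls depended on the setting: 3 rose and 4 fell with dim probe sets left out or with probe sets of 1 symbol only, 4 and 6 with the offset of 32, and 3 and 3 with an intensity trend. COPS2 lay at 7.21 and 7.01 in the H3.Y arrays, 8.84 and 8.88 in the combined arrays and 8.85 and 8.90 in the luciferase arrays (1.75 ± 0.14, adjusted p = 0.00546). The proteasome genes PSMA5 and PSMD5 differed by 1.01 ± 0.19 and 1.01 ± 0.17. Combined and luciferase levels of COPS2 overlapped, so the knockdowns differed there through the H3.Y arrays. Among 7 genes of 14-3-3 proteins, which bind phosphorylated partners, YWHAE and SFN rose and YWHAH fell. YWHAH lay at 6.48 and 6.54 in the combined arrays, 8.31 and 8.55 in the H3.Y arrays and 8.41 and 8.60 in the luciferase arrays (-1.92 ± 0.15, adjusted p = 0.00546). YWHAE lay at 10.04 and 9.78 in the H3.Y arrays and between 10.88 and 10.98 in the other 4 (1.01 ± 0.14). Without either combined array, 0 genes of these 4 lists were called. Without H3.Y replicate 1 or either luciferase array, 1 proteasome or COP9 gene rose. Without H3.Y replicate 2, 3 stress genes and 4 chaperones fell, and without either luciferase array 0 stress genes were called. The stress response median was 0.25 with all arrays and 0.07 without H3.Y replicate 2.

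Few ribosomal protein genes were called, and most had somewhat lower means in the combined arrays. Of 66 mitochondrial ribosomal protein genes, 54 had lower means in the combined arrays, with a median of log2 -0.22, and 4 were called lower and 0 higher. Arrays did not overlap, with the combined arrays lower, for 45 of the 66, where all genes gave 27.6%. MRPL50 lay at 7.02 and 6.86 in the combined arrays, 8.73 and 8.41 in the H3.Y arrays and 8.46 and 8.35 in the luciferase arrays (-1.63 ± 0.16, adjusted p = 0.00824), and MRPL42 (-1.11 ± 0.21), MRPL20 (-0.83 ± 0.14) and MRPL24 (-0.72 ± 0.13) fell. The mean of the list was 7.74 and 7.78 in the combined arrays, 8.01 and 7.99 in the H3.Y arrays and 8.07 and 8.04 in the luciferase arrays. Of 55 cytosolic ribosomal protein genes, 48 had lower means, with a median of -0.15, and RPS24 (-0.74 ± 0.13) and RPS29 (-0.72 ± 0.14) were the 2 called, where 2.68% of all genes were called lower. The mean of that list was 10.08 and 10.14 in the combined arrays and 10.31 and 10.26 in the H3.Y arrays. In both lists the combined arrays lay below the other 4, by less than the smallest called difference of log2 0.61. The mitochondrial median stayed between -0.20 and -0.25 and the cytosolic one between -0.09 and -0.18 with any 1 array left out. The mitochondrial falls numbered 0 without either combined array and 1 without any other array, and the cytosolic falls 0 with any 1 array left out.

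With all arrays, the hypoxia list and the cholesterol and fatty acid list were called in both directions, and the oxidative phosphorylation list only lower. Over all genes, 4.05% were called higher and 2.68% lower. Of 32 hypoxia and glycolysis genes, 4 rose and 2 fell. P4HA2, a prolyl hydroxylase of collagen, lay at 9.99 and 9.91 in the combined arrays, 8.31 and 8.38 in the H3.Y arrays and 8.81 and 8.95 in the luciferase arrays (log2 1.60 ± 0.13, adjusted p = 0.00576). The carbonic anhydrase CA12 rose by 1.57 ± 0.20, the glucose transporter SLC2A1 by 1.51 ± 0.23 and the aldolase ALDOC by 1.00 ± 0.13. The enolase ENO2 (-0.96 ± 0.13) and the mitophagy receptor BNIP3 (-0.77 ± 0.14) fell. Of 28 cholesterol and fatty acid synthesis genes, HMGCS1 and ACAT2 of the sterol pathway rose by 1.17 ± 0.18 and 1.18 ± 0.15, and SCD, the stearoyl-CoA desaturase, fell by 0.99 ± 0.15. Of 57 oxidative phosphorylation subunits, NDUFB6 of respiratory complex I (-1.11 ± 0.16) and ATP5PF of the ATP synthase (-0.75 ± 0.14) fell, and 0 rose. That share of falls was near the share over all genes. With either combined array left out, 0 genes of these 3 lists were called. Without H3.Y replicate 1 the hypoxia counts were 1 higher and 0 lower, and without either luciferase array 2 and 1. The sterol and fatty acid counts were 1 and 0 without H3.Y replicate 1 or either luciferase array, and 1 and 3 without H3.Y replicate 2. The oxidative phosphorylation falls were 0 without H3.Y replicate 1 or either luciferase array, and 3 rises joined 2 falls without H3.Y replicate 2.

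Of 17 nuclear lamina and inner nuclear membrane genes, 2 rose and 1 fell, where 4.05% of all genes were called higher and 2.68% lower. LMNB1, lamin B1, lay at 6.17 and 7.42 in the H3.Y arrays, 8.87 and 9.21 in the combined arrays and 9.27 and 9.48 in the luciferase arrays (log2 2.24 ± 0.39, adjusted p = 0.0318), so the H3.Y arrays were low and far apart. TMEM43 rose by 0.65 ± 0.13, and TMPO, a lamina-associated protein, fell by 0.97 ± 0.19. Of 18 BCL2 family genes, the survival gene BCL2A1 and the BH3-containing BNIP3 fell, the former by log2 -1.96 ± 0.29, and 0 rose. Of 15 RNA interference and microRNA genes, the Dicer partner PRKRA fell by 0.92 ± 0.16. With either combined array left out, 0 genes of these 3 lists were called. The lamina count was 0 without either luciferase array, and 1 higher without either H3.Y array. PRKRA was called without H3.Y replicate 2 and not without any other array. The BCL2 family falls were 1 and 2 without H3.Y replicates 1 and 2, and 0 without either luciferase array. Among 11 housekeeping genes, GUSB (0.97 ± 0.14) and TFRC (1.55 ± 0.27) were called higher and the median was 0.04, but 0 were called with any array but H3.Y replicate 2 left out. ACTB differed by 0.29 ± 0.13 and was not called.

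**Figure D5:**
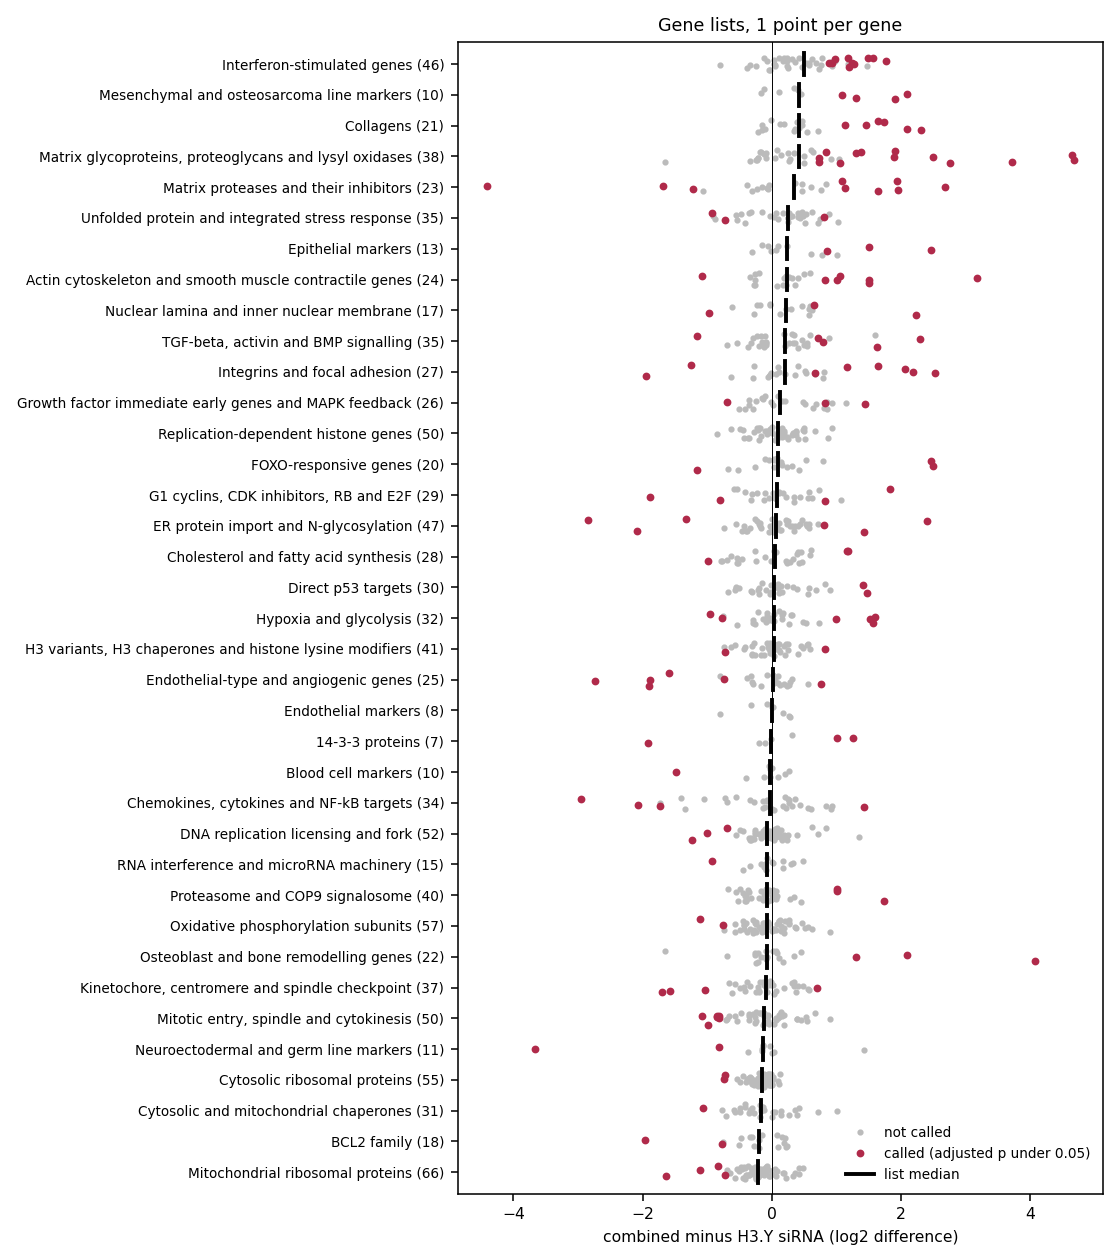
Log2 difference of the combined knockdown minus the H3.Y knockdown for each gene of 37 lists, with the number of genes measured in brackets; red points passed an adjusted p of 0.05 in limma and black bars are list medians. Lists are ordered by median, from interferon-stimulated genes at 0.50 to mitochondrial ribosomal proteins at -0.22, while the single genes with the widest differences lie in lists with medians near 0 as well as in the matrix lists.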

How the data were processed

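Biotin-labelled total RNA of U2OS cells was hybridised to 6 Affymetrix arrays, per the labels' protocols. The authors' deposited values are log2 levels per probe set. Per the submitters' processing notes, they came from oligo, a Bioconductor package. Its version, the background correction and the summarisation are not stated. The base of the logarithm was read from the range of values (0.687 to 14.0). No further normalization was applied, so a shift of all transcripts together would not be seen. Probe sets were named from the platform's annotation table, with symbols updated by Entrez ID through the RefSeq table of GRCh38.p14 for 19429 of 19460; 1754 had several symbols and 12083 were unnamed here. The build behind the probe design is not stated, so no probe set coordinates are printed. The promoter coordinates printed are those of GRCh38.p14.

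Groups were compared with limma 3.58.1 in R 4.3.3 (lmFit and eBayes, 1 mean per group on 6 arrays, 3 residual and 3.43 prior degrees of freedom). Two-sided p-values received Benjamini-Hochberg adjustment over the 33297 probe sets, without a minimum fold. The script was tested on simulated data. It called 12.4% of the probe sets changed by log2 1 and 82.8% of those changed by log2 2. Of its calls, 5.4% were false. A gene that was not called may therefore still differ by log2 1. For lists, the probe set with the highest mean stood for each gene.

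The members and the lists were chosen with earlier results of these data known. Named genes were the 15 called rises and 15 called falls of greatest size whose arrays did not overlap (1 symbol, without olfactory receptors, small RNAs and unnamed loci or reading frames), up to 5 called members of a list by smallest p, or 2 uncalled, and up to 10 genes called against luciferase in opposite directions. Further list members named were added after their values were seen. Promoters were the RefSeq table's 250 bases before each start, found for 1014 of 1261 called genes. They were searched on both strands for the TATA box as TATAAA, the box bound by NF-Y as CCAAT, the AP-1 site as TGANTCA, the E-box as CACGTG, the GC box as GGGCGG, the TEAD site as GGAATG, the cell cycle homology region as TTTGAA, the E2F site as TTTCCCGC and the interferon response element as GAAANNGAA. Matches of different motifs may overlap.

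Alternatives were a replicate block, the 4 compared arrays alone, repeated quantile normalization, median centring, leaving out dim probe sets (under 5 log2 units), testing probe sets with 1 symbol only, an offset of 32, an intensity trend, robust eBayes and leaving out each array.

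A few genes that met the rules for naming are not reported here, though counts over all genes and over lists include them.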

Additional observations from a re-analysis of the deposited data

Results flagged for a closer look

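Of all probe sets with 1 symbol, 3 were called against luciferase in both knockdowns and in opposite directions, and the test between the knockdowns passed as well. PPP1R14C, an inhibitor of protein phosphatase 1, lay at 8.04 and 7.96 log2 units in the combined arrays, 5.25 and 5.55 in the H3.Y arrays and 6.85 and 6.81 in the luciferase arrays. Its difference between the knockdowns was log2 2.60 ± 0.15 (limma adjusted p = 0.00345), made of 1.17 above luciferase in the combined knockdown (adjusted p = 0.0255) and -1.43 after H3.Y siRNA (adjusted p = 0.0372). ANXA3, a calcium-dependent phospholipid-binding protein, lay at 7.53 and 7.66, 5.60 and 5.44, and 6.76 and 6.66 in the same order, with a difference of 2.07 ± 0.14 (adjusted p = 0.00499). COL6A3 had a difference of 2.31 ± 0.15, made of 0.90 (adjusted p = 0.0485) and -1.41 (adjusted p = 0.0377). For these 3 genes the groups did not overlap, and the call between the knockdowns was lost without combined replicate 1 and kept without any other single array.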

How the results depend on the processing

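With 1 array left out, called rises over all probe sets ran from 9 to 905 and called falls from 3 to 736, against 914 and 640 with all arrays. The fit on the 4 compared arrays alone called 302 and 146. Leaving out dim probe sets called 1465 and 1075 of 17207 tested, and testing probe sets with 1 symbol only called 1546 and 1169 of 19460; both test fewer probe sets. With a replicate block, 1063 and 715 were called. Same-numbered arrays deviated together with r of 0.12 (combined with H3.Y), 0.28 (combined with luciferase) and 0.22 (H3.Y with luciferase), but 2 numbers are too few to show pairing, and the labels give none. The other alternatives gave 936 to 1141 rises and 589 to 817 falls. Rises made up 58.8% of calls, and 55.1% to 75.0% over the alternatives, the highest share being that of 12 calls without combined replicate 1. Of 169 probe sets followed by name, 165 were called, and 0 changed sign under any alternative tried. The arrays of the knockdowns did not overlap for any called probe set, so leaving out 1 array could not reverse its sign. Several other alternatives leave the difference itself unchanged, so this count is no measure of stability. Of the list medians, 18 values under whole-data alternatives moved by more than the spread between arrays and 324 did not. With an array left out, 33 moved and 195 did not. That spread was the SD of the list median over the 4 pairings of a combined with an H3.Y array, which share arrays. Leaving out a luciferase array cannot move a median, so part of the unmoved values were fixed beforehand. Genes with low levels in 1 or more groups, such as LUM, have folds that depend on the floor of the arrays. With the offset of 32, ACTBL2 differed by log2 1.84, MMP13 by 1.43, ADGRL4 by -1.10, SPINK1 by -1.17 and HCAR3 by -0.79. Of the 169 followed, 19 lost their call with that offset, among them ATP6V0D2, CLEC1A, CLEC2D, BCL2A1 and CENPH.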

Other observations

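The clustered protocadherins, cell-surface adhesion genes arranged as neighbours in the RefSeq table of GRCh38.p14, were looked at after their values had been seen, so no test over the family is given. Of 18 genes of the beta cluster, 10 were called higher in the combined knockdown than in the H3.Y knockdown and 0 lower, with a median difference of log2 1.03. Over all genes, 4.05% were called higher and 2.68% lower. PCDHB5 had means of 7.59 log2 units in the combined arrays, 5.32 in the H3.Y arrays and 6.76 in the luciferase arrays (2.27 ± 0.24, adjusted p = 0.010 in limma). PCDHB16 differed by 1.45 ± 0.17 and PCDHB13 by 1.65 ± 0.25. Of 12 genes of the alpha cluster, 6 were called higher and 0 lower, with a median of 0.65 and a range of 0.25 to 0.91. Alpha genes share their last exons and beta genes are closely similar, so their probe sets may not be separate readings. Against luciferase, the medians were 0.58 and -0.41 for the beta cluster, and 0.45 and -0.19 for the alpha cluster, in the combined and H3.Y knockdowns.

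Of 18 genes of C-type lectins that neighbour each other, also picked after their values were seen, CLEC2D, CLEC1A, CLEC2B and KLRG1 were called lower and CD69 higher, with a median of log2 -0.10. The shares over all genes were 2.68% lower and 4.05% higher. KLRG1 had means of 4.50 in the combined arrays, 5.94 in the H3.Y arrays and 5.34 in the luciferase arrays (-1.44 ± 0.27, adjusted p = 0.040). CD69 had means of 5.06, 3.76 and 3.54 (1.30 ± 0.16, adjusted p = 0.013). Of 9 neighbouring matrix metalloproteinase genes, MMP1, MMP3 and MMP10 were lower and MMP13 higher, so neighbours differed in direction in both regions.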
